A study of Mus musculus with 7 samples.

Results

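The genes described here are 42 genes of the endoplasmic reticulum (ER): the sensors of its stress response, its folding chaperones and disulfide enzymes, its degradation machinery and the complexes that bring new proteins into it. They were taken by gene symbol from a list of names, not by their values. All 42 were among the 39179 genes of the table for the replicated comparison, and all 42 had a p-value there (31641 genes had one). The cells were regulatory T cells, a CD4 T cell type that depends on Foxp3 and holds other lymphocytes in check, sorted as CD4+, TCRb+, CD25hi and Foxp3+ from lymph nodes of C57BL/6 mice aged 3 weeks. In dKO (double-knockout) mice (Id2fl/flId3fl/flFoxp3cre) both alleles of Id2 and Id3 were floxed, and Cre came from Foxp3. Id2 and Id3 encode inhibitors of E proteins, a group of transcription factors. The control mice of the numbered libraries (Id2fl/+Id3fl/+Foxp3cre) carried the same Cre with 1 floxed allele of each gene, so the controls too could lose 1 copy of Id2 and of Id3 in these cells. The replicated comparison had 3 dKO and 2 control libraries, and an unnumbered pair had 1 library labelled dKO and 1 labelled control. For that pair the genotype tags are the reverse of the titles and source names, and the titles are followed here. The control libraries also differed from each other in Y-linked genes. Kdm5d had 285 reads in the deeper control library and 3 in the other, Uty had 316 and 12, and the dKO means of both were 2.56 and 17.8 scaled counts. The part of this difference in the results was not tested.

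Proteins that are secreted or placed in membranes enter the ER through the Sec61 channel, lose their signal peptide, receive sugar chains and fold with the help of chaperones. Proteins that fail to fold are drawn back out and degraded. When unfolded protein builds up, the sensors encoded by Ern1 (IRE1), Eif2ak3 (PERK) and Atf6 are activated: IRE1 splices Xbp1 messenger RNA, which lets it encode an active transcription factor, PERK slows translation, and ATF6 is cut to release a transcription factor. The process is best known in lymphocytes from antibody-secreting plasma cells. The count table has 1 value per gene and cannot separate spliced from unspliced Xbp1.

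XBP1 and ATF6 act on many ER genes through a promoter element called ERSE, in which CCAAT is followed, 9 bases on, by CCACG. RefSeq promoter windows (build GRCm38.p6, 250 bases before to 50 after each start) were matched for 35 of the 42 genes, and both strands were searched. ERSE was found in 10 of the 35 genes (28.6%) and in 39 of 32851 windows of all genes (0.119%). A gene of the set counted if any of its windows matched, while the share over all genes is of single windows. The units thus differ, here and for the elements below. The windows below are shown because they hold ERSE, in genes that rose (Pdia6, Creld2), in Hspa5 and Calr, which encode abundant chaperones, and in the gene with the lowest fold change (Derl3). Each runs 5′ to 3′ on the strand of the gene, and capitals mark the fixed letters. Where the element lies on the other strand, these read CGTGG and ATTGG.
Pdia6, chr12:17266471-17266529, plus strand: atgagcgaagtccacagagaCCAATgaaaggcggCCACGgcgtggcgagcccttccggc
Creld2, chr15:88819500-88819558, plus strand: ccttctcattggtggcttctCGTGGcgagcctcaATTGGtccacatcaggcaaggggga
Hspa5, chr2:34772005-34772063, plus strand: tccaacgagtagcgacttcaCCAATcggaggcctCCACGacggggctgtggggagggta
Calr, chr8:84847055-84847113, minus strand: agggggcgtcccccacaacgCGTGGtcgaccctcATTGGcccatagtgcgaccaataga
Derl3, chr10:75893222-75893280, plus strand: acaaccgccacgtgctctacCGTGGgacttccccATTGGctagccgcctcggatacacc

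The other genes with ERSE were Canx, Dnajc3, Ero1lb, Hsp90b1 (which holds it at 2 places) and Syvn1. A shorter form, ERSE-II, in which ATTGG is followed, 1 base on, by CCACG, was found in Herpud1 and Dnajb11, in 2 of 35 genes (5.71%) against 12 of all windows (0.037%). In Herpud1 it begins 52 bases before the start and is shown as the only ERSE-II upstream of a start in the set.
Herpud1, chr8:94386357-94386407, plus strand: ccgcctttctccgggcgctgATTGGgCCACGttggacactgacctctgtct
CCACG alone, which both elements contain, was in 28 of 35 genes (80.0%) and in 32.8% of all windows. The XBP1 element TGACGTGG, which holds CCACG on its other strand, was in 0 of 35 genes and in 0.676% of all windows. The element of C/EBP and ATF4 factors (TGATG, any base, AA, any base) was in 1 of 35 genes, Herpud1 (2.86%), and in 3.95% of all windows. E-boxes are the sites of E proteins. CAGGTG was in 7 of 35 genes and in 20.2% of all windows, and CAGCTG was in 3 of 35 genes (8.57%) and in 16.3% of all windows. Atf6, Hyou1, Derl1, Manf, Sec61a1, Ssr2 and Spcs3 were not searched. A match says only that these letters are in the window.

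**Figure D1:**
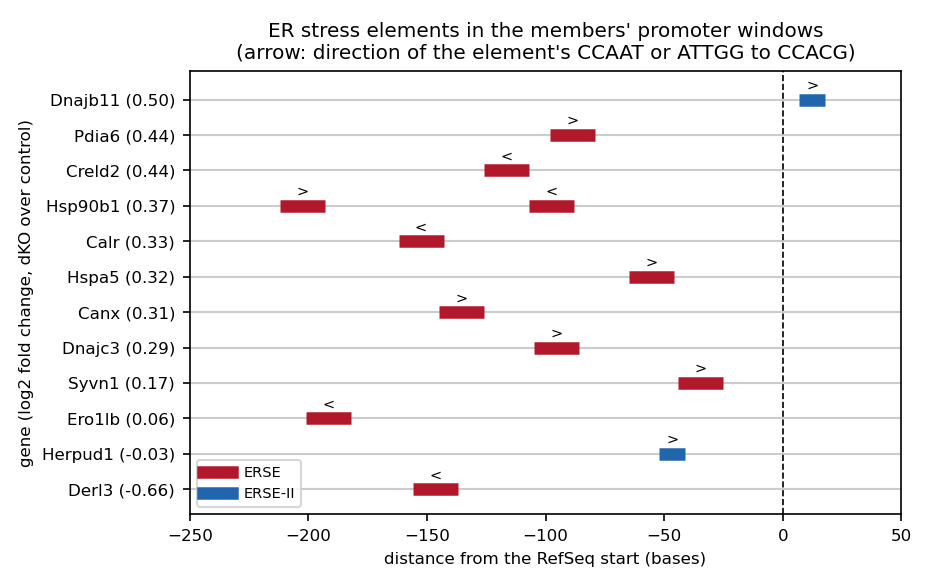
Place of ERSE (red) and ERSE-II (blue) in the promoter windows of the 12 genes that hold one, as the distance in bases from the RefSeq start (dashed line), with the direction of the element above it and the log2 fold change of dKO over control beside each name. ERSE begins between 212 (Hsp90b1) and 44 (Syvn1) bases before the start, with Pdia6 (98), Creld2 (126) and Derl3 (156) inside that stretch, and the ERSE-II of Dnajb11 lies after the start.

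Most of the 42 genes had higher means in dKO than in control, by small amounts. By an adjusted p under 0.05 of DESeq, as the authors' deposited table lists it, 8 of these 42 (19.0%) rose, 34 did not pass and 0 fell. Of all genes with a p there, 3.38% rose and 3.18% fell. Among the 10887 genes with a control mean of 100 or more scaled counts, a level that all 42 genes reach, 7.49% rose and 7.96% fell. The control means of the 42 ran from 108 to 20020 scaled counts, and no background matched more closely to these levels was used. Scaled counts are reads over the size factor of their library, given as 1 mean per group with no spread. At the authors' unadjusted DESeq p under 0.05, 21 of the 42 were higher and 1 was lower (Derl3). The share of all genes at that unadjusted cut was not counted, so these numbers have no background here. The log2 fold changes in the authors' deposited table ran from -0.66 (Derl3) to 0.94 (Edem1) with a median of 0.27, and 37 of 42 were above 0 (88.1%). Over the 10887 genes the median was -0.01 and 49.0% were above 0. In bulk RNA, more cells of a type and more RNA per cell cannot be told apart.

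**Figure D2:**
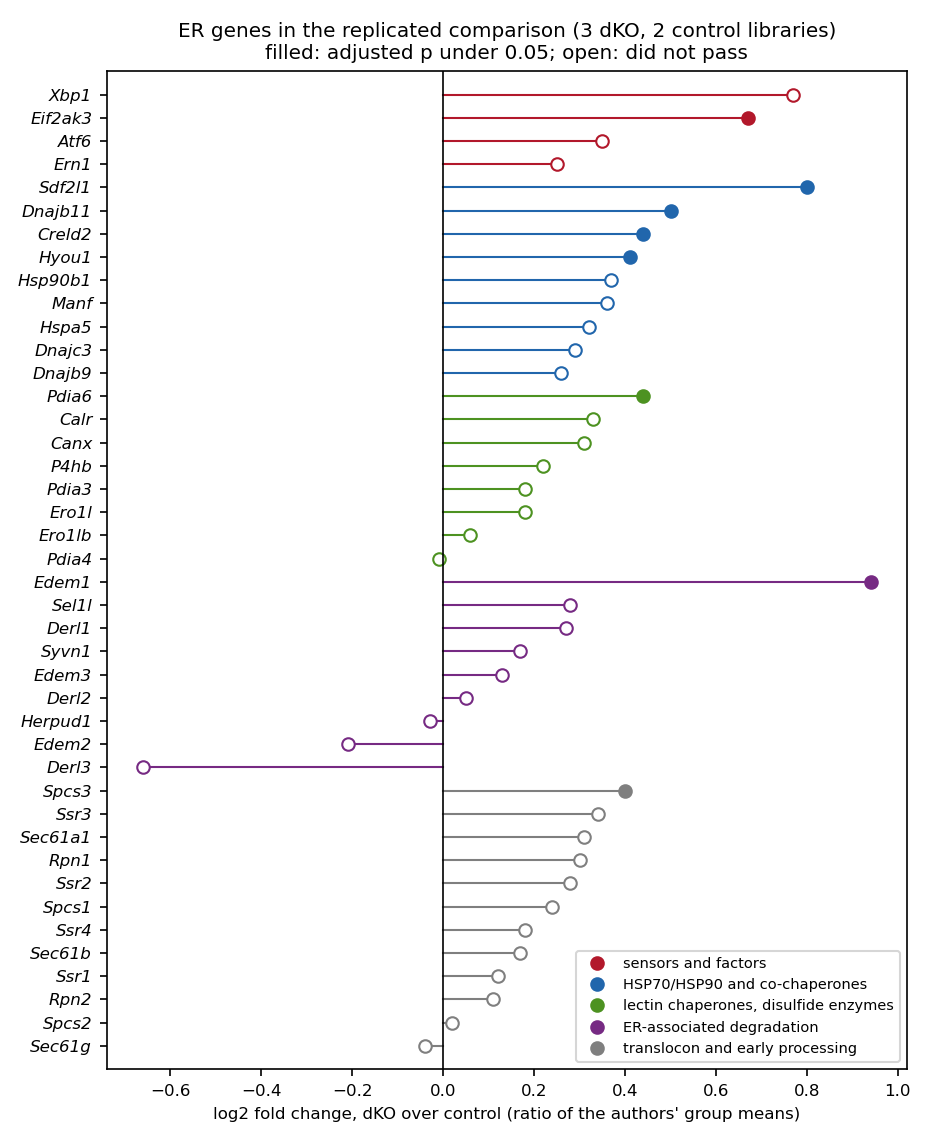
Log2 fold change of dKO over control for each of the 42 genes (x axis, ratio of the authors' group means, 3 dKO and 2 control libraries), grouped by role (colours), filled where the adjusted p was under 0.05. The 8 filled points lie between 0.40 (Spcs3) and 0.94 (Edem1), and 5 genes lie below 0.

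Of the 4 genes of sensors and factors, Eif2ak3 rose and the other 3 were higher in dKO without passing. Eif2ak3 (chromosome 6, 70844515 to 70905245, GRCm38), which encodes the kinase PERK, stood at 816 scaled counts in control and 1302 in dKO (log2 0.67 and adjusted p 0.0005, both from the authors' deposited table). It overlaps the small RNA gene Gm23346, which had 4.76 scaled counts in control. The antibody gene Igkc lies nearby on chromosome 6 (70726435 to 70726757). Its level went from 394 scaled counts in control to 3772 in dKO in the authors' deposited table. Any link between the 2 genes was not tested. Xbp1 (chromosome 11, 5520659 to 5525893) had a larger fold change with less certainty. The authors' deposited table lists 3750 scaled counts for control and 6388 for dKO (log2 0.77, unadjusted p 0.0145, adjusted p 0.156). Atf6 had 1069 and 1361 scaled counts (log2 0.35, adjusted p 0.209) and Ern1, the gene of the kinase and nuclease IRE1, had 381 and 453 (log2 0.25, adjusted p 0.682) in the authors' deposited table. All 4 fold changes were thus above 0, and the largest of them did not pass.

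For genes of low mean, whole reads of each control library could be worked out from the deposited mean. Ern1 had 463 reads in the deeper control library and 440 in the other, or 360 and 403 scaled counts, both under the dKO mean of 453. For Eif2ak3 there were 2 whole-number solutions. In the solution with the closer libraries the reads were 1106 and 844 (860 and 773 scaled counts), both under the dKO mean of 1302, and in the other the libraries would be 25.9-fold apart, with 1 of them (1572) above it. Of 1948 genes with a control mean of 100 to 390, where the solution is the only one, 74 (3.8%) had libraries 2-fold or more apart. For Atf6, Dnajb9 and Edem3, which have 2 or 3 solutions each, the solution with the closest libraries put both control libraries under the dKO mean. In each of their other solutions 1 control library was above it. The 3 dKO libraries were not separated in this way.

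Of the 9 genes of HSP70, HSP90 and their helpers, 4 rose, 0 fell and all 9 had a higher mean in dKO, with a median log2 fold change of 0.37. Sdf2l1 (chromosome 16, 17130138 to 17132383), a partner of ER J-domain proteins, had 1224 scaled counts in control against 2128 in dKO (log2 0.80, adjusted p 1.75e-05) in the authors' deposited table. Of its 3 whole-number solutions, that with the closest control libraries gave 1388 and 1061 scaled counts, both under the dKO mean. In the others the control libraries would be 3.16-fold and 8.35-fold apart, and in the latter 1 of them (2187) would be above the dKO mean. Dnajb11 (chromosome 16, 22857845 to 22879634), a J-domain protein that hands unfolded chains to BiP, rose from 3657 scaled counts to 5184 (log2 0.50 and adjusted p 0.0054, both from the authors' deposited table). Creld2 (chromosome 15, 88819646 to 88826681), induced by ER stress, had 1197 scaled counts in control against 1620 in dKO (log2 0.44 and adjusted p 0.0406, both from the authors' deposited table). Its 3 whole-number solutions do not settle the order of the libraries. That with the closest control libraries gave 1312 and 1083 scaled counts, both under the dKO mean, while the others gave 512 and 1882 or 2111 and 284, each with 1 control library above it. Hyou1 (chromosome 9, 44379490 to 44392369), a large HSP70 relative that exchanges the nucleotide of BiP, had 3527 against 4672 (log2 0.41 and adjusted p 0.0461, both from the authors' deposited table). Creld2 and Hyou1 passed narrowly.

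The most abundant chaperone genes of that group did not pass. Hspa5, which encodes BiP, the HSP70 of the ER, had 20020 scaled counts in control against 25042 in dKO (log2 0.32, adjusted p 0.168) in the authors' deposited table. Hsp90b1, the ER form of HSP90, had 14472 and 18693 (log2 0.37, adjusted p 0.726) there. Manf, a secreted ER stress protein, had 2229 and 2851 (log2 0.36, adjusted p 0.130) in the same authors' deposited table, among the 3 adjusted p-values nearest above the threshold. It overlaps Vprbp on the other strand, which had 2862 scaled counts in control against 2905 in dKO, and the sources used here do not say whether strand was used in counting. Manf also overlaps Rbm15b on the same strand, with entries of 1368 and 228 scaled counts in control against 1403 and 236 in dKO. Dnajc3 and Dnajb9, 2 more J-domain proteins, had log2 fold changes of 0.29 and 0.26 in the authors' deposited table. All 5 genes of the group that did not pass thus had higher means in dKO.

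Among the 8 lectin chaperone and disulfide genes, 1 rose, 0 fell and the median log2 fold change was 0.20. Pdia6 (chromosome 12, 17266545 to 17284770), a protein disulfide isomerase, rose in the authors' deposited table from 5393 to 7294 scaled counts (log2 0.44, adjusted p 0.0264). It overlaps Atp6v1c2 on the other strand, which had 7.41 scaled counts in control against 24.2 in dKO, far below the level of Pdia6. Calr, the lectin chaperone calreticulin, had 19133 and 24080 scaled counts (log2 0.33, adjusted p 0.144) in the authors' deposited table, and Canx, its membrane-bound relative calnexin, 11561 and 14315 (log2 0.31). Pdia3, the isomerase that works with both, had 18447 and 20934 (log2 0.18), and P4hb, the founding isomerase, 9827 and 11479 (log2 0.22), in the authors' deposited table. Pdia4 was level, with 4691 scaled counts in control and 4668 in dKO (log2 -0.01). The oxidase genes Ero1l and Ero1lb, which feed oxidising power to the isomerases, had log2 fold changes of 0.18 and 0.06 in the authors' deposited table.

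The degradation genes had the widest range, with 1 that rose, 0 that fell, and log2 fold changes from -0.66 to 0.94 around a median of 0.13. Edem1 (chromosome 6, 108828641 to 108859356), a mannosidase-like protein that marks misfolded glycoproteins for removal, rose in the authors' deposited table, where control had 7778 scaled counts and dKO 14969. This was the largest fold change of the 42 (1.92-fold, log2 0.94, adjusted p 2.99e-08 in the authors' deposited table). Its paralogs did not pass. Edem2 had 2111 and 1820 scaled counts (log2 -0.21, adjusted p 0.630) and Edem3 had 1238 and 1353 (log2 0.13, adjusted p 1) in the authors' deposited table. The differences between the paralogs were not tested.

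Derl3, a derlin of the retrotranslocation channel, had the lowest fold change, from 159 scaled counts in control to 101 in dKO (log2 -0.66, unadjusted p 0.0061, adjusted p 0.081) in the authors' deposited table. Its control libraries had 215 and 165 reads (167 and 151 scaled counts), both above the dKO mean. It passed, as a fall, when p was adjusted only over genes with a mean of 10 or more (adjusted p 0.0402). The other derlins, Derl1 (4454 and 5358 scaled counts, log2 0.27) and Derl2 (1915 and 1988, log2 0.05), were above 0 in the authors' deposited table. Derl2 overlaps Mis12 on the other strand, at 1481 scaled counts in control. Sel1l and Syvn1, the core of the ubiquitin ligase that they serve, had log2 fold changes of 0.28 and 0.17, and Herpud1, which helps assemble it, had 3272 and 3195 scaled counts (log2 -0.03), in the authors' deposited table.

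In the group of translocation and early processing, 1 of 12 genes rose, 0 fell and 11 of 12 had higher means in dKO, with a median log2 fold change of 0.21. Spcs3 (chromosome 8, 54520433 to 54529998), a subunit of the signal peptidase, rose in the authors' deposited table, with 5284 scaled counts in control and 6979 in dKO (log2 0.40, adjusted p 0.0433). Its partner subunits Spcs1 and Spcs2 had log2 fold changes of 0.24 and 0.02 in the authors' deposited table. The channel subunit genes Sec61a1 (9105 and 11311 scaled counts, log2 0.31, adjusted p 0.164) and Sec61b (3256 and 3675, log2 0.17, adjusted p 0.828) missed the threshold in the authors' deposited table. The genes of the translocon-associated complex, Ssr1, Ssr2, Ssr3 and Ssr4, had log2 fold changes of 0.12, 0.28, 0.34 and 0.18, and those of the sugar transferase subunits Rpn1 and Rpn2 had 0.30 and 0.11, in the authors' deposited table.

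Reads of Sec61g, the small subunit of the channel, cannot be placed with certainty. The gene had 108 scaled counts in control against 105 in dKO, while its pseudogene Gm10177, 99.1% identical over 424 bases, had 1402 and 1631. Summed over the gene and its 4 near-identical copies, the values were 1514 and 1742, a log2 ratio of 0.20 in place of -0.04. Ssr2 shares a stretch of 366 bases at 98.6% identity with 2700060E02Rik, and the sum of both had a log2 ratio of 0.16 in place of 0.28. The copy of Spcs2 held 10.1 scaled counts in control and that of Sec61b fewer, and adding them left their log2 ratios at 0.02 (Spcs2) and 0.17 (Sec61b).

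The 10 genes with ERSE had a median log2 fold change of 0.32, with 2 that rose (Pdia6, Creld2), 0 that fell and 9 above 0. The 25 searched genes without it had a median of 0.18, with 4 that rose (Eif2ak3, Sdf2l1, Dnajb11, Edem1), 0 that fell and 21 above 0. The difference between these sets was not tested. Edem1, Sdf2l1 and Eif2ak3, which had the 3 largest fold changes among the genes that rose, held no ERSE in the window, and Derl3, with the lowest, did. Only the exact letters within the window were searched, so a gene counted without ERSE may still have such an element. Dnajb11 and Herpud1, counted among those without it, hold ERSE-II. Hyou1 and Spcs3, which rose, were not searched and are in neither set.

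In the unnumbered pair, FPKM, which scales fragments by transcript length and library depth, allows levels to be compared between genes. With 1 library of each label there is no replicate check, and no test of the conditions. Calr was the most abundant of the 42 in the library labelled control, with 432 FPKM, rank 153 among the 8679 genes with 5 FPKM or more in either library. It was followed by Pdia3 (237 FPKM), Ssr4 (215 FPKM) and Hspa5 (212 FPKM). At the other end were Ern1 (2.01 FPKM), Ero1lb (2.55 FPKM), Atf6 (4.67 FPKM), Derl3 (4.89 FPKM) and Sec61g (0.144 FPKM), the last with the uncertainty of its copies. The sensor genes Ern1, Atf6 and Eif2ak3 (6.19 FPKM) were thus among the lowest of the set, and 38 of the 42 had 5 FPKM or more in either library.

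**Figure D3:**
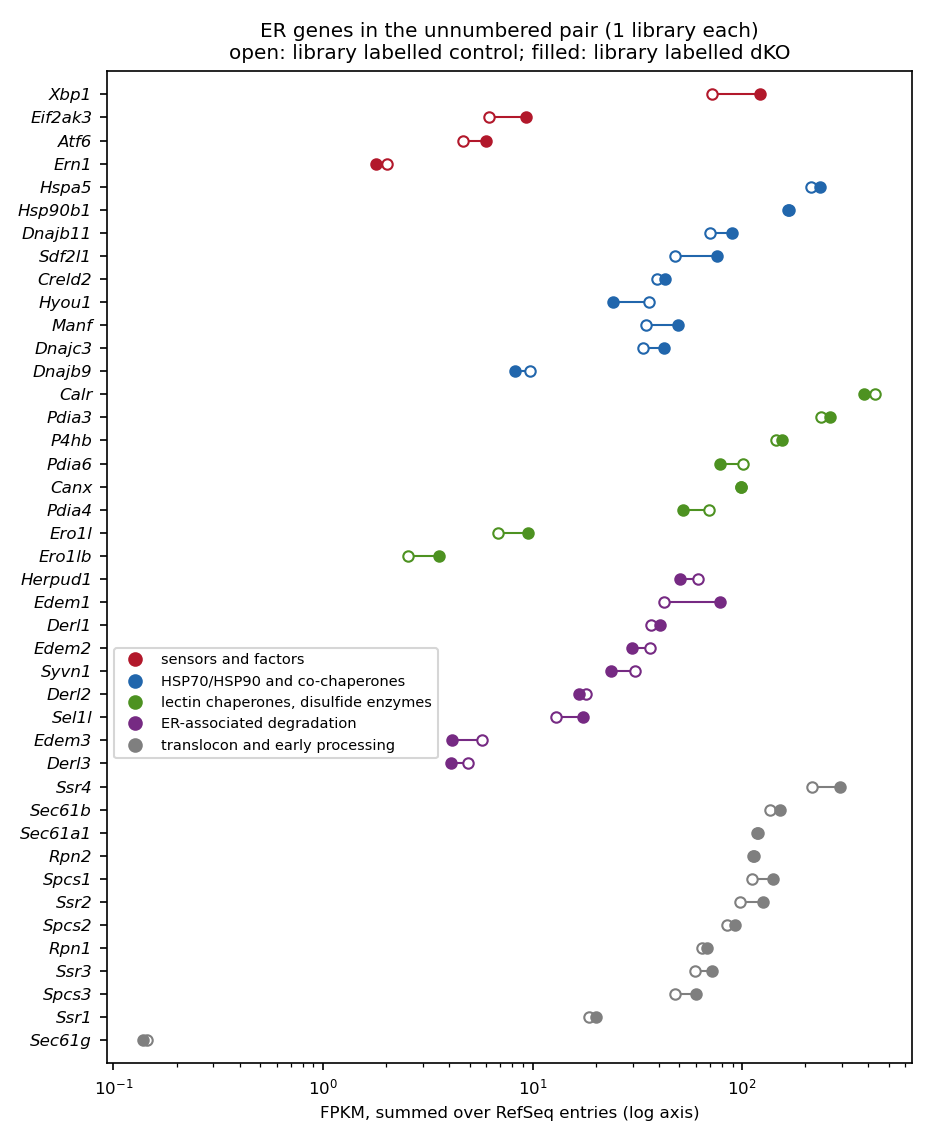
FPKM of each of the 42 genes (log axis) in the library labelled control (open) and the library labelled dKO (filled) of the unnumbered pair, grouped by role. Edem1 (42.2 to 78.0), Xbp1 (71.4 to 121) and Sdf2l1 (47.7 to 75.4) have the widest steps to higher values, and Hyou1 (35.9 to 24.3) the widest to lower ones.

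The targeted genes gave a mixed check of the pair's labels. Id2 had 18.6 FPKM in the library labelled control and 9.69 in that labelled dKO, while Id3 had 159.8 and 221.3. In the replicated comparison Id2 fell in the authors' deposited table from 783 scaled counts to 61.1 (log2 -3.68), and Id3, at 1376 and 891, did not pass there (log2 -0.63, adjusted p 0.209). The labels do not say which exons were floxed. The directions below rest on the titles of these libraries. Of the 42 genes, 4 had a log2 ratio of FPKM + 1 of 0.5 or more (dKO over control) and 1 of -0.5 or less, or 9.52% and 2.38%, beside 10.4% and 12.1% of the 8679 genes. The median of the 42 was 0.12 and that of the 8679 genes 0.01.

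The 4 that were higher past that ratio were Edem1 (log2 0.87), Xbp1 (0.75), Sdf2l1 (0.65) and Eif2ak3 (6.19 and 9.32 FPKM, 0.52), which are also the 4 of the 42 with the highest fold changes in the replicated comparison (4 of 4 shared). Manf lay just under that ratio (0.50 when rounded). Xbp1, which did not pass there, was next after Edem1 here. The gene past the ratio on the lower side was Hyou1 (-0.54), which had risen in the replicated comparison. Pdia6 also went the other way, from 101 FPKM in the library labelled control to 78.1 in that labelled dKO (log2 -0.36). Of the 8 genes that rose in the replicated comparison, 6 had a ratio above 0 in the pair and 2 below. Over all 42, 27 were above 0 in both, 10 above 0 in the replicated comparison and below in the pair, and 5 below 0 in both, with 0 below 0 only in the replicated comparison. Of the 8679 genes, 50.9% were above 0 in the pair. Agreement in sign between the comparisons was not counted over all genes, and neither was the sharing of the highest genes.

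**Figure D4:**
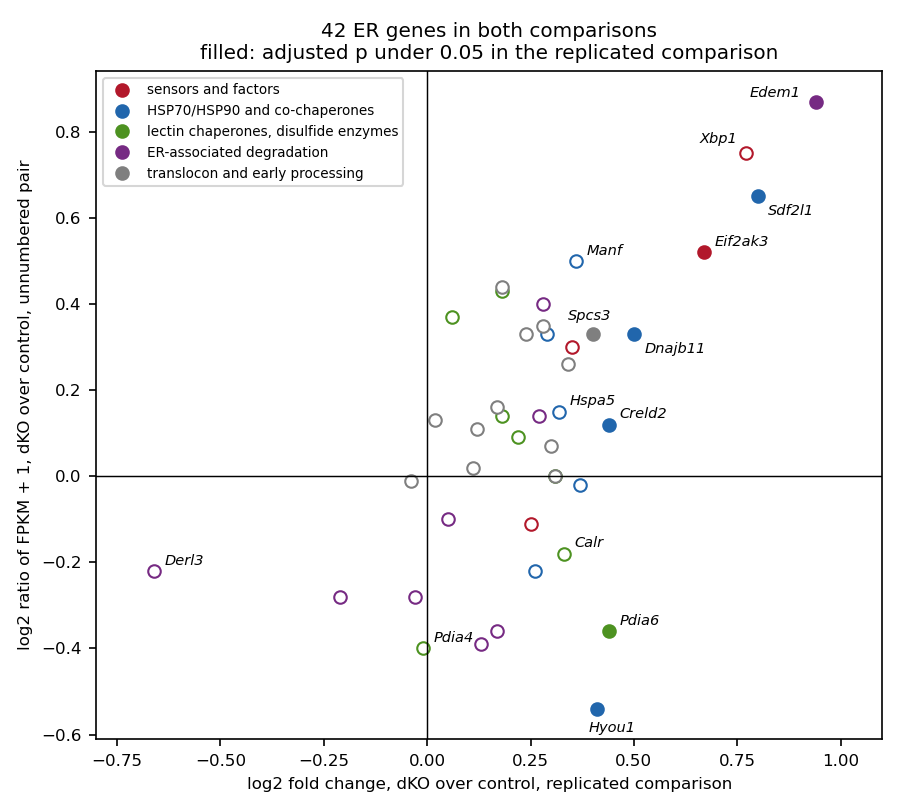
Log2 fold change of the replicated comparison (x axis) against the log2 ratio of FPKM + 1 in the unnumbered pair (y axis), both dKO over control, for the 42 genes, coloured by role and filled where the adjusted p of the replicated comparison was under 0.05. Edem1, Xbp1, Sdf2l1 and Eif2ak3 lie highest on both axes, and Hyou1 and Pdia6 lie right of 0 and below 0.

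By role, the median log2 ratio of the pair was 0.41 for the sensors and factors, 0.15 for the HSP70 and HSP90 group, 0.04 for the lectin and disulfide group, -0.22 for the degradation group and 0.14 for the translocation group, where 11 of 12 genes were above 0. RefSeq entries of 1 gene could differ in opposite directions. An entry of Canx went from 14.8 to 0.0236 FPKM while another went from 84.1 to 98.6, and their sums were 98.8 and 98.6. For Sel1l, an entry went from 3.17 to 0.00352 FPKM and another from 9.74 to 17.3, with sums of 12.9 and 17.3. Sums over entries are used throughout.

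Beyond the 42, a further 127 genes of the same pathways were examined in 6 lists. In the authors' deposited table, rises were listed for 15 of them and a fall for 1, and 111 did not pass, with a median log2 fold change of 0.10. The rises were 11.8% and the fall 0.787% of the 127, beside 3.38% and 3.18% of all genes with a p. Of the 114 with a control mean of 100 or more, 10.5% rose and 0.877% fell, beside 7.49% and 7.96% of all genes at that level. Signalling and target genes of the stress response held the most rises, 6 of 20, among them Asns, which makes asparagine (233 to 654 scaled counts, log2 1.49), and the ER-bound transcription factor genes Creb3l2 (907 to 1654, log2 0.87) and Creb3l1 (37.1 to 87.6, log2 1.24), in the authors' deposited table. The other 14 of that list did not pass, and its median log2 fold change was 0.23. The 26 other folding genes had 3 rises and 1 fall by the authors' deposited table: Ppic, a prolyl isomerase (143 to 630 scaled counts, log2 2.13), Mzb1, a BiP partner of antibody-making cells (11.2 to 905, log2 6.34), and Prdx4, a peroxidase (1377 to 1941, log2 0.49), were higher and the thioredoxin-like gene Tmx4 (-0.46) lower. The other 22 folding genes did not pass, and the median log2 fold change of the list was 0.01. Mzb1 is also counted among the plasma cell markers below.

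In the remaining lists the share that rose was between 4.17% and 11.8%, beside the same 3.38% and 7.49%. Of 17 translocation genes 2 rose, the signal peptidase gene Sec11c (4751 to 6985 scaled counts, log2 0.56) and Tram2 (log2 0.63), in the authors' deposited table. Of 22 degradation genes 2 rose, among them the deglycosylase gene Ngly1 (log2 0.53), in the authors' deposited table. Of 18 glycosylation genes 1 rose, the mannosidase gene Man1a (log2 0.51), and of 24 genes of transport to the Golgi 1 rose, the cargo receptor gene Surf4 (log2 0.44), in the authors' deposited table. The median log2 fold changes of these 4 lists were 0.10, 0.07, 0.12 and 0.10 in that order. They and the stress response list held 0 falls by the authors' adjusted p (DESeq). At an unadjusted DESeq p under 0.05, 3 translocation genes were higher and 0 lower, and 2 degradation genes higher and 4 lower. At that cut, 4 glycosylation genes were higher and 0 lower, 6 transport genes higher and 1 lower, and 8 stress response genes higher and 1 lower. The share of all genes at that cut was not counted, for these lists or for the markers below.

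Markers of other cells and of division were read in the same libraries. By the authors' deposited table, 12 of 14 genes of dividing cells rose and none fell (DESeq), and at an unadjusted p under 0.05, 13 were higher and 0 lower. Their summed level was 65499 scaled counts in control and 123536 in dKO, and 538 and 785 FPKM in the pair. Of 11 plasma cell markers, 4 rose (Igkc, Ighm, Mzb1, Prdm1) and 1 fell (Pou2af1) in the authors' deposited table, and 6 were higher and 1 lower at an unadjusted p under 0.05. Their median log2 fold change was 0.86. They summed to 28854 in control and 94163 in dKO, of which Ighm had 17317 and 74808, and to 96.0 and 143 FPKM in the pair. Irf4 had 6590 and 9389 scaled counts (log2 0.51, adjusted p 0.144) in the authors' deposited table. Igkc went from 394 to 3772 scaled counts, Mzb1 from 11.2 to 905 and Prdm1 from 1179 to 2053, while Pou2af1 went from 451 to 266. Of the markers in this list that did not pass, Ighg1 went from 3.25 to 26.1, Igj from 70.3 to 133 and Sdc1 from 23.4 to 28.0. Tnfrsf13b (2814 to 2783) and Tnfrsf17 (1.24, listed at 0 for dKO) were not higher.

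Of 11 B cell markers 0 passed by the authors' adjusted p (DESeq), with 0 at an unadjusted p under 0.05. Their sum was 1190 in control and 1375 in dKO. The highest were Cd79b (894 and 1006), Cd22 (172 and 266) and Cd79a (71.2 and 51.1), and Ms4a1 had 1.76 and 1.47. Myeloid markers (9 genes) summed to 237.5 and 286 with 0 that passed, and at an unadjusted DESeq p under 0.05 there was 1 higher and 1 lower. Of 7 dendritic cell markers 1 fell (Xcr1) in the authors' deposited table, with sums of 169.3 and 114. Markers of CD8 and NK cells (7 genes) summed to 1208 and 2111, and 0 passed by DESeq, also at an unadjusted p under 0.05. Of that sum, Gzmb had 365 in control and 1209 in dKO, Cd8b1 had 663 and 687, and Klrb1c had 69.7 and 64.7. Of 9 markers of the labelled cell type, Ctla4 rose and the others did not pass, with Foxp3 at 13481 scaled counts in control and 10942 in dKO in the authors' deposited table. The part of dividing cells and of plasma cell genes in the rises of ER genes was not tested.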

How the data were processed

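Messenger RNA of sorted regulatory T cells was measured by RNA sequencing in 7 libraries. For the 5 numbered libraries the deposited signal columns hold group means, which the file headers call raw counts, but the values are fractional, with the steps of reads over a size factor. The log2 values and the raw and adjusted p-values are those that the authors deposited, from RSEM and DESeq on mm10 (GRCm38) per the submitters' processing notes, without versions. For the pair, the authors deposited FPKM from TopHat 1.4.0 and Cuffdiff (version given as 0.0.6) on mm9, per the submitters' processing notes, and its p-values were not used. Libraries marked strand with dUTP, per the labels' protocols.

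No test per gene was added, because the table holds group means: the authors' adjusted p under 0.05, over the whole table, is the call, and recomputing it came within 0.00124. No label names the animal behind a library, and the p-values measure no more than the spread between libraries. The sum of all means was 38950892 (control) or 39948550 (dKO). The size factors of the control libraries, 1.29 and 1.09, were recovered from low values, and a read pair had to give the mean within 6e-05. On simulated means of 18245 genes under 390, 100% of read pairs were recovered. Of 27901 RefSeq entries, 26775 (96.0%) were matched to a symbol, and FPKM was summed per gene with a pseudocount of 1 before log2, which understates changes of low genes. Near-identical copies share 200 bases at 95% identity (blastn 2.17.0), and some of them are listed as protein-coding genes. Of the 42 genes, 14 are marked as overlapping another gene. Scripts ran in Python 3.11.15 with pandas 2.3.3.

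The members, lists, the fold of 0.5 for the pair and the genes named (all that passed, the 4 sensors and factors, the 2 of highest FPKM per role, the 3 nearest the threshold, and up to 3 per further list) were chosen with earlier results of these data known. Other members, Tmx4, the marker and Y-linked genes named, overlapping genes and the level of 100 scaled counts were chosen after their values were seen. Thresholds, adjustment, scaling, pseudocounts and copies were varied. A few genes that these rules take are not reported here.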

Additional observations from a re-analysis of the deposited data

How the results depend on the processing

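The count of 8 genes that rose became 4 at an adjusted p under 0.01. It was 8 with 1 fall (Derl3) at 0.1 or with p adjusted over genes with a mean of 10 or more, and 6 of 28 without genes marked as overlapping. The 16 calls of the further lists were between 11 and 21 under the same settings, chosen for them after seeing the data. The median of the 42 stayed between 0.24 and 0.28 under each scaling and filter tried, with copies added included. In the pair, 3 genes were past the ratio with a pseudocount of 5 FPKM, where Hyou1 and Eif2ak3 were not, and between 5 and 6 otherwise. Against each control library alone, log2 fold changes were 0.17 to 0.33 for Ern1, -0.73 to -0.58 for Derl3, -0.00012 to 0.13 for Ero1lb and -0.1 to 0.035 for Sec61g. No paired analysis was possible because the columns hold group means. For the same reason, leaving out each dKO library, and each control library for the list, was not run. Group means have no spread, which limits every comparison here.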

Other observations

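ERSE was also found in the windows of genes outside the set. Of these, 15 had a p in the replicated comparison, with 0 that rose and 1 that fell by the authors' adjusted p (DESeq), and 1 higher and 1 lower at an unadjusted p under 0.05. Adcy3, an adenylate cyclase gene, fell in the authors' deposited table from 1306 scaled counts to 921 (log2 -0.50, adjusted p 0.0094). For Spats2l the authors' deposited table lists 175 in control and 419 in dKO (log2 1.26, adjusted p 0.129). The median log2 fold change of those with a value was 0.02, and -0.15 over the 8 with a mean of 10 or more scaled counts (3 above 0), beside 0.32 for the 10 ER genes with ERSE, and the difference was not tested.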
